A study of Mus musculus with 28 samples.

Results

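The genes described here encode signal transducers and activators of transcription (STATs) and Janus kinases (JAKs): Stat2, Stat3, Stat4, Stat5a, Stat6, Jak1, Jak2, Jak3 and Tyk2. They were chosen by name as members of these families, by a rule that sets no threshold on their values but with earlier results of these data known, and all 9 were found among the 54532 genes counted. RNA was sequenced from 28 cultures of mouse bone marrow-derived macrophages (BMDM), cells grown from the marrow of adult C57/B6JB mice with macrophage colony-stimulating factor (M-CSF). Control cultures received PBS, VWF cultures received human plasma-derived von Willebrand factor, a blood-clotting glycoprotein, at 10 µg/ml, and LPS cultures received lipopolysaccharide, a component of the bacterial wall, at 100 ng/ml. All groups were kept in fresh medium with CaCl2 and were sampled after 3.5 h or 16 h. At each time there were 5 control, 5 VWF and 4 LPS cultures. The labels call them biological replicates but do not say whether cultures came from separate mice, so the p-values measure the spread between these cultures only.

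JAKs are tyrosine kinases bound to the inner tails of cytokine receptors. A cytokine that joins its receptor chains brings a pair of JAKs together, the JAKs phosphorylate the receptor and a STAT, and the paired STATs enter the nucleus and bind DNA. Type I interferon uses Jak1 and Tyk2 and a complex of STAT proteins with Irf9, interferon-γ uses Jak1 and Jak2, the interleukin-6 and interleukin-10 families act largely through Stat3, interleukin-4 acts through Stat6, and granulocyte-macrophage colony-stimulating factor acts through Jak2 and Stat5. Macrophages exposed to LPS make several of these cytokines themselves. RNA level is not kinase activity or STAT phosphorylation, neither of which was measured here.

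Total counts per culture ran from 41131209 to 77699206, with a median of 52986574. All 8 macrophage markers examined, Adgre1 and Csf1r among them, reached 10 TPM, transcripts scaled for length and depth, in every group. Over the STAT and JAK genes several cultures sat at the edge of their group. LPS 3.5 h replicate 1 was the lowest of its group in 8 of the 9, and Control 16 h replicate 5, VWF 16 h replicate 4 and LPS 16 h replicate 4 were each the lowest in 7. Control 3.5 h replicate 4 was the highest in 8 and LPS 16 h replicate 3 in 7. Calls that changed when a single culture was left out are given beside the result. Scaling by trimmed mean of M-values (TMM), which sets the bulk of genes level between cultures, gave factors of 0.745 to 0.849 in LPS, 0.899 to 1.09 in VWF and 1.04 to 1.24 in control cultures. With plain library sizes the median log2 fold change of all genes tested fell to -0.22 for VWF and -0.55 for LPS against control at 3.5 h, and to -0.09 and -0.59 at 16 h. Fold changes below are relative to the bulk of genes.

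In the GRCm38 annotation, Stat2 (ENSMUSG00000040033) spans chr10:128270559-128292849 on the plus strand and Stat6 (ENSMUSG00000002147) lies nearby at chr10:127642986-127660957, also plus. Stat3 (ENSMUSG00000004040, chr11:100885098-100939540, minus) and Stat5a (ENSMUSG00000004043, chr11:100859351-100885169, plus) converge, and their annotated exons overlap over 0.756% and 1.01% of their exon length. Jak2 (ENSMUSG00000024789) is at chr19:29251828-29313080 on the plus strand and Jak1 (ENSMUSG00000028530) at chr4:101152367-101265282 on the minus strand. Tyk2 (ENSMUSG00000032175, chr9:21104068-21131243, minus) shares 8.07% of its exon length with 1700084C06Rik on the other strand. Jak3 (ENSMUSG00000031805, chr8:71676296-71690575, plus) shares 7.55% with Insl3 on the same strand, and Stat4 (ENSMUSG00000062939, chr1:51987148-52107189, plus) shares 26.7% with Gm28177 on the same strand, so counts for Stat4 are the least certain.

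Promoter windows are shown for Stat2, Stat3 and Jak2, which all rose with both stimuli at 3.5 h, because that of Stat2 holds letters that STAT complexes are known to bind and those of Stat3 and Jak2 do not. Each is the 250 bases before the RefSeq start on GRCm38.p6, printed 5′ to 3′ on the strand of its gene, for Stat2 chr10:128270248-128270497 (plus), for Stat3 chr11:100939541-100939790 (minus) and for Jak2 chr19:29251553-29251802 (plus). Capitals mark matches to the core of the interferon-stimulated response element, taken as GAAA, any 2 bases and GAAA and searched on both strands, or to a gamma-activated site, taken as TTC, any 3 or any 4 bases and GAA, which reads the same on either strand.
Stat2: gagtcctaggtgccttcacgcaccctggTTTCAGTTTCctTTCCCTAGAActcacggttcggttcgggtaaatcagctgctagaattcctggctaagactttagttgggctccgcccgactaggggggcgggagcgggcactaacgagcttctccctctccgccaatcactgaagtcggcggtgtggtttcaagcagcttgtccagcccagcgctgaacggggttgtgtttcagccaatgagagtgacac
Stat3: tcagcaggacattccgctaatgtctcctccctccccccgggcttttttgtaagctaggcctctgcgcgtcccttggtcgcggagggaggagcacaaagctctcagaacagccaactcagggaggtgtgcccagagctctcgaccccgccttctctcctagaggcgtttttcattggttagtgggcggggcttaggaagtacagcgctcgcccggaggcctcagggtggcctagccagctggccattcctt
Jak2: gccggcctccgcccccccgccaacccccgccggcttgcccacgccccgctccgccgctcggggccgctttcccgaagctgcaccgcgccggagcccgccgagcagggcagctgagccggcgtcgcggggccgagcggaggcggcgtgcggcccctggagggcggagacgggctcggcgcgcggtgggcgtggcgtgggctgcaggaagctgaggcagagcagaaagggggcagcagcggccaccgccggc
Counted from the RefSeq start, the response element core of Stat2 lay on the minus strand at -222 to -213 and the longer gamma-activated form at -210 to -201, without overlap between them. All 9 members matched a RefSeq entry, with 11 windows in all. The only other match was in the inner of the 2 Stat4 windows, at -97 to -88 from that start, inside the gene and outside its annotated exons, shown with its neighbouring bases (chr1:52008133-52008162, plus).
Stat4: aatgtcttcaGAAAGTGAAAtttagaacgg
Over 32851 promoter windows of this length, 2.98% held the response element core, 7.02% the shorter and 5.85% the longer gamma-activated form. These matches are a description of letters, and the absence of one says only that the letters are not in the window.

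Levels are given as reads per kilobase of exon scaled to sequencing depth (RPKM), after TMM scaling, which can be compared between genes and between cultures. In control macrophages at 3.5 h the order was Stat6 (38.1 RPKM ± 8.47, SD, n = 5), Jak1 (21.1 ± 3.9), Stat3 (9.05 ± 0.401), Jak2 (8.37 ± 1.91), Tyk2 (6.02 ± 1.03), Jak3 (4.72 ± 0.486), Stat2 (3.52 ± 0.642), Stat5a (2.30 ± 0.461) and Stat4 (0.351 ± 0.119). The ranges of Stat3 and Jak2, of Jak2 and Tyk2, and of Jak3 and Stat2 overlapped, and the other neighbours in that order did not. After stimulation for 3.5 h Jak2 led the order, at 78.8 RPKM ± 10.4 (SD, n = 5) with VWF and 95.7 ± 20.3 (n = 4) with LPS, clear of the next member in both. At 16 h Stat6 led again in control and VWF cultures, while in LPS cultures Stat2 led at 99.5 RPKM ± 33.9 (SD, n = 4), followed by Stat3 at 44.4 ± 4.81.

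**Figure D1:**
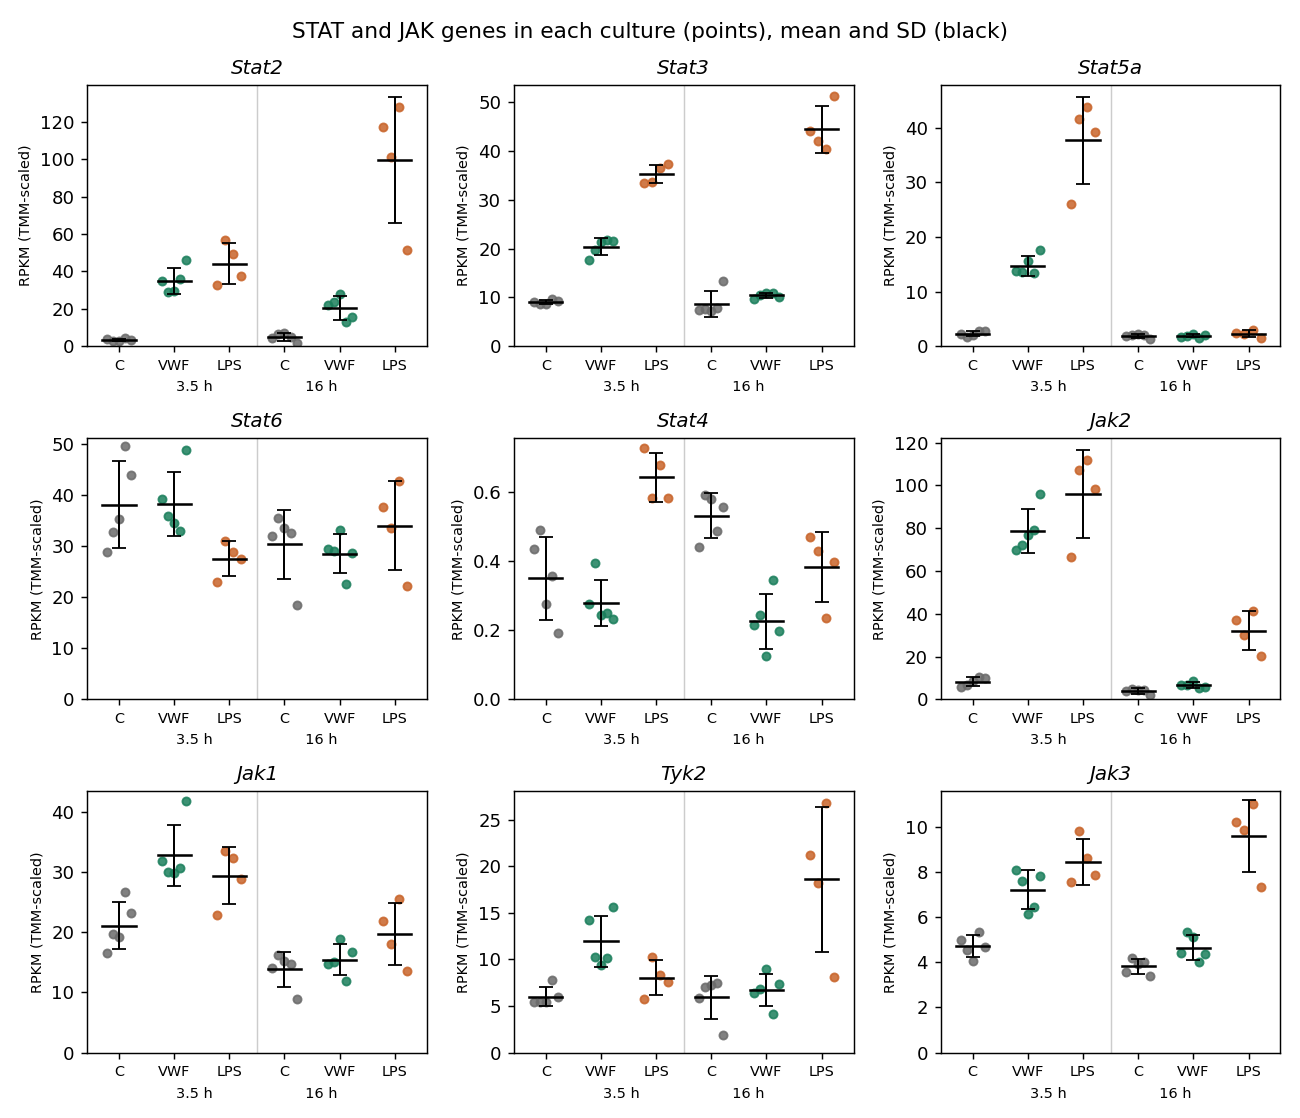
RPKM of each gene (vertical axes from 0, a different range in each panel) in the 28 cultures, by control (C), VWF and LPS at 3.5 h and 16 h; points are cultures, black lines the mean and SD. Jak2 and Stat5a stood high with both stimuli at 3.5 h, Stat2, Stat3, Jak3 and Tyk2 were highest on average in LPS at 16 h, and 1 control culture at 16 h lay apart in several panels.

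After 3.5 h most of the family was higher with either stimulus. Of the 8 members that reached 10 TPM in some culture of the comparison and so were tested, 7 were higher and none lower with VWF than in control, where 43.6% of all genes tested passed in either direction and 22.3% were higher. With LPS 6 were higher and 1, Stat6, was lower, against 65.7% of all genes passing, 31.8% higher and 33.9% lower. The median log2 fold change of the tested members was 1.00 with VWF and 1.35 with LPS, beside -0.01 and -0.02 over all genes. With the further requirement of a change over 2-fold, 4 members passed in each comparison, Stat2, Stat3, Stat5a and Jak2, where 14.7% and 24.5% of all genes did. A direct comparison of the 2 stimuli at 3.5 h called 4 of 8 members, Stat3 and Stat5a lower and Stat6 and Tyk2 higher in VWF cultures, near the 50.2% of all genes called. Of these 4, Stat5a alone differed over 2-fold, where 11.4% of all genes did.

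After 16 h fewer members passed for VWF. Of 7 tested, Stat2 alone passed, and it was higher, against 27.7% of all genes passing and 13.1% higher. Without Control 16 h replicate 5 the count was 4, with Stat3 and Jak2 higher and Stat6 lower beside Stat2, and DESeq2 called 2. LPS cultures held 5 of 7 members higher (Stat2, Stat3, Jak2, Jak3 and Tyk2), each over 2-fold, with none lower, where 53.7% of all genes passed, 27.3% were higher and 27.6% passed with a change over 2-fold. The same 5 were lower in VWF than in LPS cultures, each over 2-fold, against 60.5% of all genes called, 31% lower and 25.5% called with a change over 2-fold. Median log2 fold changes of the members were 0.14 for VWF and 1.62 for LPS against control, and -1.49 for VWF against LPS, beside medians over all genes of -0.03, -0.03 and 0. In whole RNA from a culture, fewer cells of a kind and less RNA per cell cannot be told apart.

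**Figure D2:**
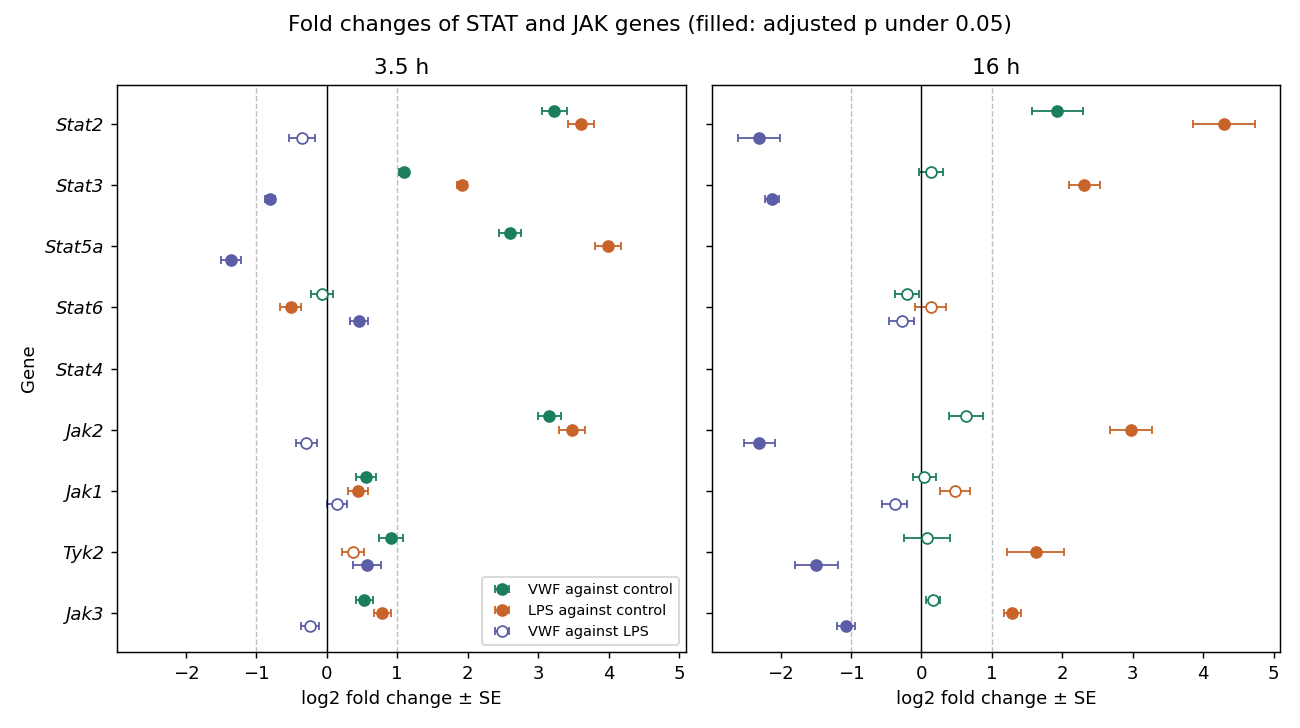
Log2 fold change ± SE of each tested gene at 3.5 h (left) and 16 h (right) for each stimulus against control and for the 2 stimuli against each other; filled points passed at an adjusted p under 0.05 and dashed lines mark 2-fold. At 3.5 h the VWF and LPS points lay close for Stat2 and Jak2, and at 16 h the VWF points lay near 0 for all but Stat2 and Jak2, at 1.93 and 0.63.

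Stat2 pairs with Irf9 in the interferon-stimulated complex and carries the signal of type I interferon. Its level was 2.82, 3.09, 3.42, 3.79 and 4.46 RPKM in control cultures at 3.5 h. With VWF it was 28.9, 29.3, 34.9, 36.2 and 46.0, and with LPS 32.7, 37.7, 49.4 and 57.0. Neither stimulated group overlapped control, but they overlapped each other. The fold change was 9.41 with VWF (log2 3.23, SE 0.18, adjusted p = 5.89e-08) and 12.2 with LPS (log2 3.61, SE 0.19, adjusted p = 3.02e-08). Between the stimuli the log2 difference was -0.35 (95% interval -0.71 to 0.02, adjusted p = 0.141), and without VWF 3.5 h replicate 5 it was -0.48 and passed (adjusted p = 0.0404).

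At 16 h Stat2 separated the stimuli. Control cultures held 1.61, 4.48, 4.97, 6.48 and 7.34 RPKM, VWF cultures 12.8, 15.6, 22.3, 23.7 and 28, and LPS cultures 51.6, 101, 117 and 128. The 3 groups did not overlap, the lowest LPS value being replicate 4 and the lowest control value replicate 5. Stat2 was 3.81-fold higher with VWF than in control (log2 1.93, SE 0.36, adjusted p = 0.00248) and 19.6-fold higher with LPS (log2 4.29, SE 0.44, adjusted p = 2.74e-05). VWF cultures were 4.96-fold below LPS cultures (log2 -2.31, SE 0.30, adjusted p = 8.87e-05). From 3.5 h to 16 h the VWF effect fell by 1.26 on the log2 scale (SE 0.40, adjusted p = 0.0189). The LPS effect changed by 0.71 (SE 0.46, adjusted p = 0.214), which did not pass, and the difference between the stimuli widened by a log2 value of -1.98 (SE 0.37, adjusted p = 0.000216).

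Stat3 carries signals of the interleukin-6 and interleukin-10 families. At 3.5 h its values in control cultures lay within 8.64 to 9.64 RPKM, in VWF cultures at 17.7, 19.7, 21.3, 21.5 and 21.8, and in LPS cultures at 33.5, 33.7, 36.4 and 37.3. The groups formed 3 separate steps with little spread in any of them. Stat3 was 2.12-fold higher with VWF (log2 1.09, SE 0.07, adjusted p = 2.07e-07) and 3.77-fold higher with LPS (log2 1.92, SE 0.07, adjusted p = 1.94e-09). VWF cultures were 1.75-fold lower than LPS cultures (log2 -0.80, SE 0.07, adjusted p = 8.96e-06).

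At 16 h Stat3 stayed high in LPS cultures, at 40.3, 42, 44.1 and 51.2 RPKM, 4.94-fold above control (log2 2.31, SE 0.22, adjusted p = 1.88e-05). VWF cultures had 9.74, 10.1, 10.4, 10.8 and 11, and control cultures 7.23, 7.33, 7.71 and 7.91, with replicate 5 apart at 13.4. All VWF values lay above 4 control values and below the fifth. With all cultures the VWF log2 fold change was 0.14 (SE 0.17, adjusted p = 0.629), and without Control 16 h replicate 5 it was 0.36 (adjusted p = 0.000674). The VWF effect was lower at 16 h than at 3.5 h by a log2 value of -0.92 (SE 0.20, adjusted p = 0.00123). The gap between VWF and LPS grew from 3.5 h to 16 h by -1.34 (SE 0.12, adjusted p = 1.04e-07).

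Stat5a, a target of Jak2 below the receptors for growth factors of the colony-stimulating group, was high at 3.5 h only. Control cultures held 1.64, 2.13, 2.24, 2.71 and 2.77 RPKM, VWF cultures 13.4, 13.5, 13.7, 15.6 and 17.6, and LPS cultures 26.1, 39.2, 41.5 and 43.8. The 3 groups did not overlap, and LPS replicate 1 was the lowest of its group. The rise was 6.06-fold with VWF (log2 2.60, SE 0.15, adjusted p = 7.79e-08) and 15.9-fold with LPS (log2 3.99, SE 0.18, adjusted p = 9.27e-09), the largest fold of any member at 3.5 h. VWF cultures were 2.57-fold below LPS cultures (log2 -1.36, SE 0.14, adjusted p = 2.12e-05). Among members tested at the 10 TPM filter, Stat5a alone differed between the stimuli by over 2-fold at that time.

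By 16 h Stat5a lay between 1.33 and 3.01 RPKM in all 14 cultures, with the 3 groups overlapping. It stayed under 10 TPM there and was not tested. In a fit without that filter, read after this was seen, its log2 fold change was -0.06 with VWF (95% interval -0.34 to 0.23, adjusted p = 0.853) and 0.33 with LPS (-0.09 to 0.75, adjusted p = 0.275). In the fits over both times the effect fell by 2.69 on the log2 scale for VWF (SE 0.20, adjusted p = 3.79e-09) and by 3.73 for LPS (SE 0.29, adjusted p = 2.11e-08). Among members tested at the 10 TPM filter, Stat5a was the one whose LPS effect was lower at 16 h than at 3.5 h by the test. It was also the one whose VWF against LPS difference moved up with time, by 1.03 (SE 0.24, adjusted p = 0.0018).

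Stat6, which carries interleukin-4 and interleukin-13 signals, was the most abundant STAT in control cultures, and its fold changes stayed under 2. At 3.5 h it was 28.9, 32.8, 35.4, 44.0 and 49.6 RPKM in control, 32.9, 34.6, 36.0, 39.2 and 48.8 with VWF, and 22.9, 27.4, 28.9 and 31.0 with LPS. VWF cultures lay inside the control range, whereas LPS cultures sat at its lower end and below. The log2 fold change was -0.07 with VWF (95% interval -0.38 to 0.24, adjusted p = 0.778). With LPS it fell by 0.51 (SE 0.15, adjusted p = 0.0106), and VWF cultures were 1.38-fold above LPS cultures (log2 0.46, SE 0.13, adjusted p = 0.0163).

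At 16 h no Stat6 comparison passed. Values were 18.5 to 35.5 RPKM in control, 22.6 to 33.1 with VWF and 22.2 to 42.7 with LPS, where replicate 5 and replicate 4 gave the lowest control and LPS values. The log2 fold changes were -0.20 for VWF (95% interval -0.53 to 0.12), 0.13 for LPS (-0.30 to 0.55) and -0.28 for VWF against LPS (-0.62 to 0.06, adjusted p = 0.196). Without Control 16 h replicate 5 the VWF value was -0.33 (adjusted p = 0.0154), and without LPS 16 h replicate 4 the VWF against LPS value was -0.44 (adjusted p = 0.00866). With a replicate block that difference was -0.25 and passed (adjusted p = 0.0278). The block was chosen for VWF against LPS at 16 h from these same data, because cultures of the same number deviated together there. The difference between the stimuli changed from 3.5 h to 16 h by -0.77 (SE 0.23, adjusted p = 0.00931).

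Stat4, which carries interleukin-12 signals in lymphocytes, stayed between 0.125 and 0.725 RPKM in all 28 cultures and was not tested at the 10 TPM filter. LPS cultures at 3.5 h had the highest mean, from 0.581, 0.583, 0.676 and 0.725, and overlapped control cultures at 16 h, of which 1 was at 0.592. On the TPM scale the control cultures at 16 h had the highest mean. VWF cultures at 16 h had the lowest mean, 0.225 RPKM ± 0.0800 (SD, n = 5). In the fit without a filter it was higher with LPS than in control at 3.5 h (log2 0.85, SE 0.27, adjusted p = 0.0173, where 32.7% of genes passed) and lower with VWF than in control at 16 h (log2 -1.27, SE 0.27, adjusted p = 0.00626, where 10.5% passed). It was also lower with VWF than with LPS at 3.5 h (log2 -1.26, SE 0.25, adjusted p = 0.000554, where 20.2% passed), and its LPS effect was lower at 16 h than at 3.5 h (log2 -1.32, SE 0.40, adjusted p = 0.0208, where 18% passed). Among 7 T cell markers, Cd3e had at most 6 counts in any culture, and Cd3g reached 45 in a control culture at 16 h. Cd4 reached 643 counts in a control culture at 3.5 h, with means there of 5.94 CPM in control and 4.47 with LPS. The list's summed level was 33.8 to 61.8 CPM in LPS cultures at 3.5 h and 4.52 to 8.94 in controls, a rise carried by Lck, whose mean was 44.2 CPM in those LPS cultures and 0.424 in controls. The 5 NK cell markers summed to at most 1.72 CPM in any culture. The part of Lck in the Stat4 values was not tested.

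Jak2, the kinase of the interferon-γ, growth hormone and colony-stimulating factor receptors, showed the widest swing in level of the JAKs. At 3.5 h control cultures held 5.97, 6.96, 8.49, 10.2 and 10.3 RPKM, VWF cultures 69.7, 72.0, 76.9, 79.2 and 96.1, and LPS cultures 66.4, 98.2, 107 and 112. Both stimulated groups lay far above control and overlapped each other through LPS replicate 1. The fold change was 8.92 with VWF (log2 3.16, SE 0.16, adjusted p = 3.13e-08) and 11.1 with LPS (log2 3.48, SE 0.19, adjusted p = 2.98e-08). The log2 difference between the stimuli was -0.29 (95% interval -0.58 to 0.00, adjusted p = 0.115), which passed without LPS 3.5 h replicate 1 (-0.42, adjusted p = 0.0147) or VWF 3.5 h replicate 5 (-0.39, adjusted p = 0.0332).

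At 16 h Jak2 was 1.87, 4.03, 4.52, 4.57 and 4.92 RPKM in control, 5.19, 5.73, 6.71, 6.84 and 8.84 with VWF, and 20.1, 30.3, 36.9 and 41.4 with LPS. The groups did not overlap, and VWF cultures lay just above control. The LPS fold change was 7.89 (log2 2.98, SE 0.30, adjusted p = 2.21e-05), and VWF cultures were 4.93-fold below LPS cultures (log2 -2.30, SE 0.22, adjusted p = 1.1e-05). The VWF log2 fold change of 0.63 did not pass (SE 0.24, adjusted p = 0.0795), whereas without Control 16 h replicate 5 it was 0.46 and passed (adjusted p = 0.0209). From 3.5 h to 16 h the VWF effect fell by 2.49 on the log2 scale (SE 0.29, adjusted p = 1.12e-06). The LPS effect changed by -0.47 (95% interval -1.16 to 0.22, adjusted p = 0.282), and the difference between the stimuli moved by -2.03 (SE 0.27, adjusted p = 7.51e-06).

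Jak1, the kinase shared by interferon, interleukin-6 and interleukin-4 receptors, was the most abundant JAK in control cultures and moved little. Control cultures at 3.5 h held 16.6, 19.3, 19.7, 23.2 and 26.7 RPKM, VWF cultures 29.8, 30.0, 30.7, 31.8 and 41.8, and LPS cultures 22.9, 28.9, 32.3 and 33.5. VWF cultures lay above all controls, and LPS cultures overlapped them through replicate 1. The fold change was 1.47 with VWF (log2 0.56, SE 0.14, adjusted p = 0.00626) and 1.36 with LPS (log2 0.44, SE 0.14, adjusted p = 0.0171). With library size scaling the LPS value turned to -0.11 and the VWF value was 0.34 (adjusted p = 0.0795), and without LPS 3.5 h replicate 2 the LPS call was lost (adjusted p = 0.0521).

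At 16 h Jak1 ranged over 8.87 to 16.3 RPKM in control, 11.9 to 18.9 with VWF and 13.6 to 25.6 with LPS, and all 3 groups overlapped. The log2 fold change was 0.04 with VWF (95% interval -0.28 to 0.36, adjusted p = 0.892) and 0.48 with LPS (0.07 to 0.88, adjusted p = 0.079), the latter 0.61 and past the test without LPS 16 h replicate 4 (adjusted p = 0.0247). VWF against LPS was -0.38 (adjusted p = 0.0932). It passed without LPS 16 h replicate 4 (-0.53, adjusted p = 0.0105) and with the replicate block (-0.40, adjusted p = 0.00296).

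Tyk2, the partner of Jak1 at the type I interferon receptor, was higher with VWF first and with LPS later. At 3.5 h it was 5.39, 5.45, 5.46, 6 and 7.81 RPKM in control, 9.44, 10.2, 10.3, 14.2 and 15.6 with VWF, and 5.78, 7.60, 8.38 and 10.3 with LPS. VWF cultures stood clear of control, and LPS cultures overlapped both. The VWF fold change was 1.88 (log2 0.91, SE 0.17, adjusted p = 0.00108), and the LPS log2 fold change of 0.37 did not pass (SE 0.16, adjusted p = 0.0666). It passed without Control 3.5 h replicate 4 (0.48, adjusted p = 0.0139) or LPS 3.5 h replicate 1 (0.49, adjusted p = 0.0176). VWF cultures were 1.48-fold above LPS cultures (log2 0.57, SE 0.20, adjusted p = 0.0387), a call that was lost in 5 of the 9 fits with a culture left out, with adjusted p up to 0.108.

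At 16 h Tyk2 was 1.92 to 7.47 RPKM in control, 4.18 to 8.94 with VWF, and 8.16, 18.2, 21.2 and 26.8 with LPS. LPS replicate 4 was the lowest and lay inside the VWF range. Tyk2 was 3.07-fold higher with LPS than in control (log2 1.62, SE 0.41, adjusted p = 0.00844) and 2.81-fold lower with VWF than with LPS (log2 -1.49, SE 0.31, adjusted p = 0.00219). VWF and control differed by 0.08 (95% interval -0.56 to 0.71). The difference between the stimuli changed sides with time, by -2.08 (SE 0.39, adjusted p = 0.000268). The LPS effect grew by 1.27 (SE 0.47, adjusted p = 0.0324), which was lost in 6 of the 18 fits with a culture left out, with adjusted p up to 0.0798.

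Jak3 binds the common gamma chain Il2rg, which serves the interleukin-2 and interleukin-4 receptors. At 3.5 h it was 4.06, 4.54, 4.67, 4.98 and 5.36 RPKM in control, 6.12, 6.43, 7.61, 7.81 and 8.07 with VWF, and 7.53, 7.84, 8.6 and 9.79 with LPS. Both stimulated groups lay above control and overlapped each other. The fold change was 1.44 with VWF (log2 0.53, SE 0.12, adjusted p = 0.00367) and 1.73 with LPS (log2 0.79, SE 0.12, adjusted p = 0.000121), and with library size scaling both fell short of the threshold (log2 0.32 and 0.25).

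At 16 h Jak3 in LPS cultures was 7.33, 9.84, 10.2 and 11 RPKM, above all control (3.40 to 4.18) and VWF (4.00 to 5.32) values. The LPS fold change was 2.45 (log2 1.29, SE 0.12, adjusted p = 1.26e-05), and VWF cultures were 2.11-fold below LPS cultures (log2 -1.07, SE 0.13, adjusted p = 5.31e-05). VWF against control gave 0.17 (95% interval -0.02 to 0.36, adjusted p = 0.239). The LPS effect was larger at 16 h than at 3.5 h by 0.51 (SE 0.17, adjusted p = 0.017), and the VWF against LPS difference moved by -0.86 (SE 0.18, adjusted p = 0.000784).

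Over time in culture without a stimulus Jak1 and Jak2 were lower, and the share of members that were lower was near that of all genes. Between 3.5 h and 16 h of PBS, 2 of 8 members passed, both lower, where 41.1% of all genes passed and 20.5% were lower. Jak2 fell by 1.03 on the log2 scale (SE 0.24, adjusted p = 0.00619) and Jak1 fell by 0.56 (SE 0.16, adjusted p = 0.0193). Without Control 16 h replicate 5, 4 members passed, Stat2 higher by 0.76 (adjusted p = 0.00362) and Stat3 lower by 0.22 joining them (log2 -0.22, adjusted p = 0.0139). Jak3 passed without Control 3.5 h replicate 3 (log2 -0.32, adjusted p = 0.0217).

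The tests of change with time, which compare the effect at 16 h with that at 3.5 h, called 4 of 8 members for VWF, all with a lower effect (32.6% of all genes called, 16.6% lower). For LPS they called 3 of 8 (48.8% of all genes), Stat5a lower and Jak3 and Tyk2 higher. For the difference between the stimuli they called 7 of 8 (52.7% of all genes), Stat5a upward and Stat2, Stat3, Stat6, Jak2, Jak3 and Tyk2 downward (29.2% of all genes were lower). Both effects at each time were taken against the same control cultures. Calls on 5 members depended on a single culture. Without Control 16 h replicate 5 the VWF effect was also lower at 16 h for Tyk2 (log2 -1.04, adjusted p = 0.00323) and Jak1 (-0.61, adjusted p = 0.0129), and the LPS effect was higher for Stat3 (0.64, adjusted p = 0.00045). The change of the VWF effect on Jak1 also passed without Control 3.5 h replicate 4 (-0.60, adjusted p = 0.0378), and that on Jak3 without VWF 3.5 h replicate 3 (-0.39, adjusted p = 0.0462). The change of the LPS effect on Stat6 passed without LPS 16 h replicate 4 (0.80, adjusted p = 0.015), Control 3.5 h replicate 1 (0.74, adjusted p = 0.0401) or LPS 3.5 h replicate 2 (0.74, adjusted p = 0.0486). For Jak1 the difference between the stimuli passed without LPS 16 h replicate 4 (-0.69, adjusted p = 0.0108), VWF 16 h replicate 3 (-0.63, adjusted p = 0.0349), VWF 3.5 h replicate 3 (-0.60, adjusted p = 0.0467) or LPS 3.5 h replicate 2 (-0.62, adjusted p = 0.0489).

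**Figure D3:**
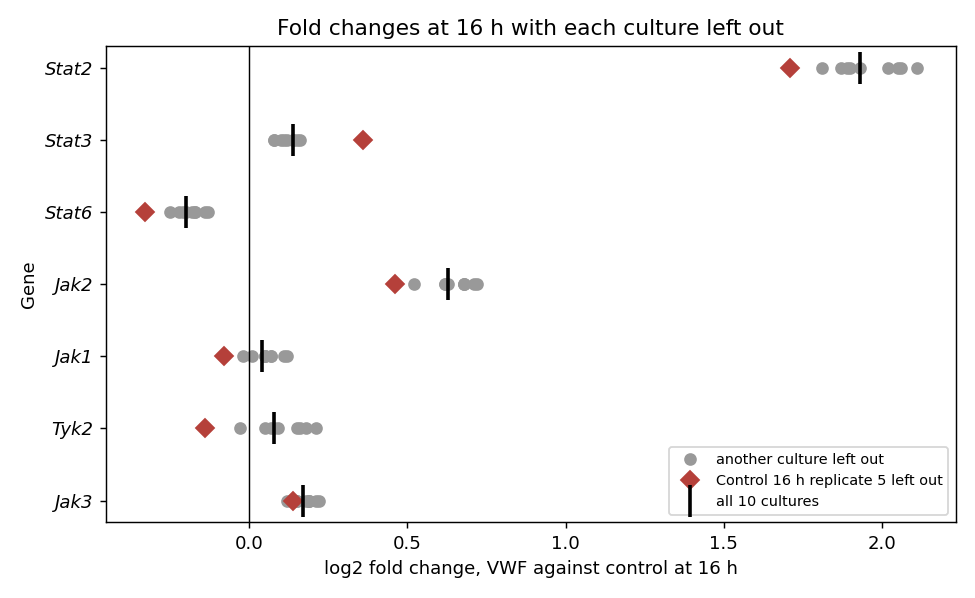
Log2 fold change of the 7 tested genes in VWF against control at 16 h with all 10 cultures (black bars), with Control 16 h replicate 5 left out (red diamonds) and with each other culture left out (grey points). Leaving out that control moved Stat3 from 0.14 to 0.36 and Stat6 from -0.20 to -0.33, outside the grey points for both.

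Members differed in how closely their levels ran together. Pearson correlations of log2 CPM over the 28 cultures, which share the 6 groups and therefore the group differences above, were 0.88 for Stat5a with Jak2, 0.87 for Jak1 with Jak2, 0.90 for Stat3 with Jak3 and 0.87 for Stat2 with Jak3. Stat6 was at 0.62 with Tyk2, 0.61 with Jak1 and -0.11 with Stat3, and Stat4 was at 0.24 or lower with every other member. Over 8866 genes searched, Ddx58 (0.98) and Znfx1 (0.98) were among the 3 most like Stat2. Those most like Jak2 were Crkl, Ube2z and Cflar (0.99, 0.99 and 0.98), and those most like Stat5a were Trip10, Kpna3 and Ikzf1 (0.99, 0.98 and 0.98). Stat3 was nearest to Ist1 (0.98), Jak3 to Slamf7 (0.97), Jak1 to Usp47 (0.98), Stat6 to Kmt2e (0.97), Tyk2 to Inpp5b (0.95) and Stat4 to Tnfsf8 (0.79).

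The tested STAT and JAK genes all reached 10 TPM in a control culture of each comparison with control. Many partner genes reached it with the stimulus only. Of all genes that did so, 65.5% to 98% were higher over the 4 comparisons, a direction that the filter itself favours, so partner genes are counted here among those at 10 TPM in a control culture. Of all such genes, 41.8% passed for VWF and 64.5% for LPS at 3.5 h, and 26.4% and 51.3% at 16 h.

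Ligands that signal through JAKs were mostly under 10 TPM in control cultures. Of 25 listed, 5 reached it in control at 3.5 h. Of those, 4 were higher with VWF and 4 with LPS, none lower. That is 80% called for each, beside 41.8% and 64.5% of all such genes, and 5 genes are few to set against them. A further 5 for VWF and 6 for LPS reached it with the stimulus only. Ifnb1, which encodes interferon-β, had a mean of 0.0408 CPM in control, 4.15 ± 1.45 (SD, n = 5) with VWF and 173 ± 47.8 (n = 4) with LPS. Il6 was at 0.121 CPM in control, 78.9 ± 32.8 with VWF and 468 ± 108 with LPS, and Il10 at 4.14, 60.5 ± 14.7 and 377 ± 67.6. Il12b, a subunit of interleukin-12, ran the other way between the stimuli, at 114 ± 38.5 with VWF and 39.3 ± 12.1 with LPS (log2 1.53, SE 0.27, adjusted p = 0.000851). Csf2 stayed under 10 TPM throughout and was not tested. At 16 h 3 ligands reached 10 TPM in control. With VWF Ebi3 was higher (log2 0.38, SE 0.10, adjusted p = 0.0142) and Osm lower (log2 -1.09, SE 0.14, adjusted p = 0.000203), and with LPS all 3 were higher, Ebi3 by 2.56 (SE 0.11) and Osm by 2.60 (SE 0.20). A further 6 reached it with LPS only.

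Receptor chains moved both ways. Of 35 listed, 20 reached 10 TPM in control at 3.5 h, with 9 higher and 4 lower for VWF (65% called, beside 41.8% of all genes) and 10 higher and 7 lower for LPS (85%, beside 64.5%). Both chains of the type I interferon receptor were higher, Ifnar1 by 1.19 (SE 0.11) and Ifnar2 by 1.08 (SE 0.08) on the log2 scale with VWF, and by 1.06 (SE 0.15) and 0.80 (SE 0.13) with LPS. Il10ra was higher by 1.74 (SE 0.07) and 2.70 (SE 0.08), and Il4ra, which works with Stat6, by 1.43 (SE 0.09) and 1.89 (SE 0.15). Il6ra was lower with both, by -1.24 (SE 0.13) and -1.25 (SE 0.11). At 16 h 6 of 20 were higher and 3 lower with VWF (45%, beside 26.4%), and 14 of 20 higher and 2 lower with LPS (80%, beside 51.3%). Il2rg, the partner of Jak3, was higher by 0.98 (SE 0.16, adjusted p = 0.00117) with VWF and 2.23 (SE 0.19, adjusted p = 7.1e-06) with LPS at 16 h. Il12rb1, a receptor chain that uses Tyk2, reached 10 TPM at 16 h with LPS only, so the filter favours its direction. It was at 17.3 CPM ± 3.70 in LPS cultures at 16 h and 0.547 in control. Ifngr1, which signals through Jak1 and Jak2, was 1.51 lower on the log2 scale with LPS (log2 -1.51, SE 0.18, adjusted p = 7.16e-05) and at -0.09 with VWF (adjusted p = 0.747).

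Among 20 inhibitors Socs3, Socs1, Cish and Usp18 were higher with both stimuli at 3.5 h, while the suppressors of cytokine signalling Socs6 and Socs5 were not. Socs6 was at -0.72 (SE 0.08, adjusted p = 1.11e-05) with VWF and -0.48 (SE 0.08, adjusted p = 0.000205) with LPS on the log2 scale, and Socs5 at -0.10 (adjusted p = 0.362) and -1.11 (SE 0.09, adjusted p = 7.55e-07). Of the 15 inhibitors at 10 TPM in control, 5 were higher and 3 lower for VWF (53.3% called) and 5 higher and 4 lower for LPS (60%), near the 41.8% and 64.5% of all genes. Socs1, Cish and Usp18 reached 10 TPM with the stimulus only. Socs3, an inhibitor of Stat3 signalling at the receptor, went from 7.12 CPM ± 3.54 in control to 1230 ± 113 with VWF and 1770 ± 425 with LPS. Socs1, a direct inhibitor of JAKs, went from 1.83 ± 0.302 to 127 ± 41.4 and 748 ± 128. Cish, a target and inhibitor of Stat5, was higher by 3.51 (SE 0.28) with VWF and 4.57 (SE 0.33) with LPS on the log2 scale, and like Stat5a it fell under 10 TPM at 16 h, at 0.681 CPM with VWF, 3.24 with LPS and 0.685 in control. At 16 h none of 12 inhibitors at 10 TPM in control was higher and 2 were lower with VWF (16.7%, beside 26.4% of all genes), and 4 were higher and 2 lower with LPS (50%, beside 51.3%). Socs3 and Usp18 reached 10 TPM there with the stimulus only and were higher with both. Socs3 was then at 25.2 CPM ± 6.26 with VWF, 495 ± 136 with LPS and 3.69 ± 1.77 in control. Usp18, which blocks the type I interferon receptor, was at 90.8 ± 21.2, 980 ± 98.3 and 5.21 ± 2.29.

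Of 20 interferon targets listed, 15 reached 10 TPM in control at 3.5 h. All 15 were higher with VWF and with LPS (19.7% and 29.4% of all such genes). At 16 h 14 reached it, and all 14 were higher with both (11.3% and 23.4%). The rest reached it with the stimulus only and were higher. All 20 were lower with VWF than with LPS at 3.5 h and 16 h, where 24% and 31% of all genes were lower. Over all 20, with those the filter favours, the median log2 fold change at 3.5 h was 3.56 with VWF and 5.83 with LPS. At 16 h it was 2.99 and 7.63. Rsad2, an antiviral enzyme, was at 19.0 CPM ± 7.75 in control, 2160 ± 689 with VWF and 14400 ± 1690 with LPS at 3.5 h. At 16 h it was at 10.6 ± 2.39, 98.8 ± 32.9 and 11700 ± 1380. Irf9, the partner of Stat2, was higher by 1.76 (SE 0.07) with VWF and 2.35 (SE 0.08) with LPS at 3.5 h, and by 0.93 (SE 0.11) and 1.65 (SE 0.13) at 16 h. For the VWF effect 5 of the 20 were higher and 10 lower at 16 h than at 3.5 h by the test of change. Of all genes tested, 15.9% were higher and 16.6% lower.

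Genes linked to Stat3 gave 11 higher and 3 lower of 14 with VWF, and 10 higher and 3 lower with LPS at 3.5 h (100% and 92.9% called, beside 41.8% and 64.5% of all genes). Pim1, a survival kinase also listed under Stat5, was higher by 2.63 (SE 0.12) and 3.70 (SE 0.13) on the log2 scale. Myc was lower by 2.21 with VWF (log2 -2.21, SE 0.13, adjusted p = 1.24e-07) and by 3.27 with LPS (log2 -3.27, SE 0.23, adjusted p = 3.12e-07). At 16 h, of 13 at 10 TPM in control, 5 were higher and 3 lower with VWF (61.5%, beside 26.4%), and 11 higher and 1 lower with LPS (92.3%, beside 51.3%). Il1rn, the interleukin-1 receptor antagonist, then moved in opposite directions, by -1.51 (SE 0.25, adjusted p = 0.00107) with VWF and 4.23 (SE 0.23, adjusted p = 4.56e-07) with LPS, as did Nfil3 at -1.99 (SE 0.15) and 1.46 (SE 0.17).

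Genes linked to Stat5 did not move as one at 3.5 h, with 1 higher and 3 lower of the 5 at 10 TPM in control for each stimulus. That is 80% called for each, beside 41.8% and 64.5% of all such genes. Id1 was at -1.79 (SE 0.18) and -2.91 (SE 0.27) and Bcl2l1 at -1.09 (SE 0.11) and -1.70 (SE 0.11), beside the rise of Cish and Pim1. At 16 h 1 of 5 was lower and none higher with VWF, and 4 of 5 were higher with LPS. These are 20% and 80% called, beside 26.4% and 51.3% of all such genes, and 5 genes are few to set against them. Of 15 genes linked to Stat6 only 3 reached 10 TPM in control at 3.5 h, of which 1 was higher with VWF and 2 with LPS, too few to set against all genes. Ccl22, a chemokine that reached it with the stimulus only, was at 0.610 CPM in control, 22.4 ± 7.28 with VWF and 83.1 ± 15.7 with LPS. At 16 h 1 of 4 was higher and 3 lower with each stimulus, again too few to set against all genes. Arg1, which encodes arginase and also reached 10 TPM with the stimulus only, was at 0.789 CPM in control, 50.8 ± 39.3 with VWF and 179 ± 77.7 with LPS, while the mannose receptor gene Mrc1 was lower, by -0.94 (SE 0.23, adjusted p = 0.0124) and -3.32 (SE 0.13, adjusted p = 5.84e-08). The lists overlap in Socs2, Socs3, Cish, Pim1, Il4ra, Il2ra and Osm, and many of these genes have other inducers in macrophages.

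**Figure D4:**
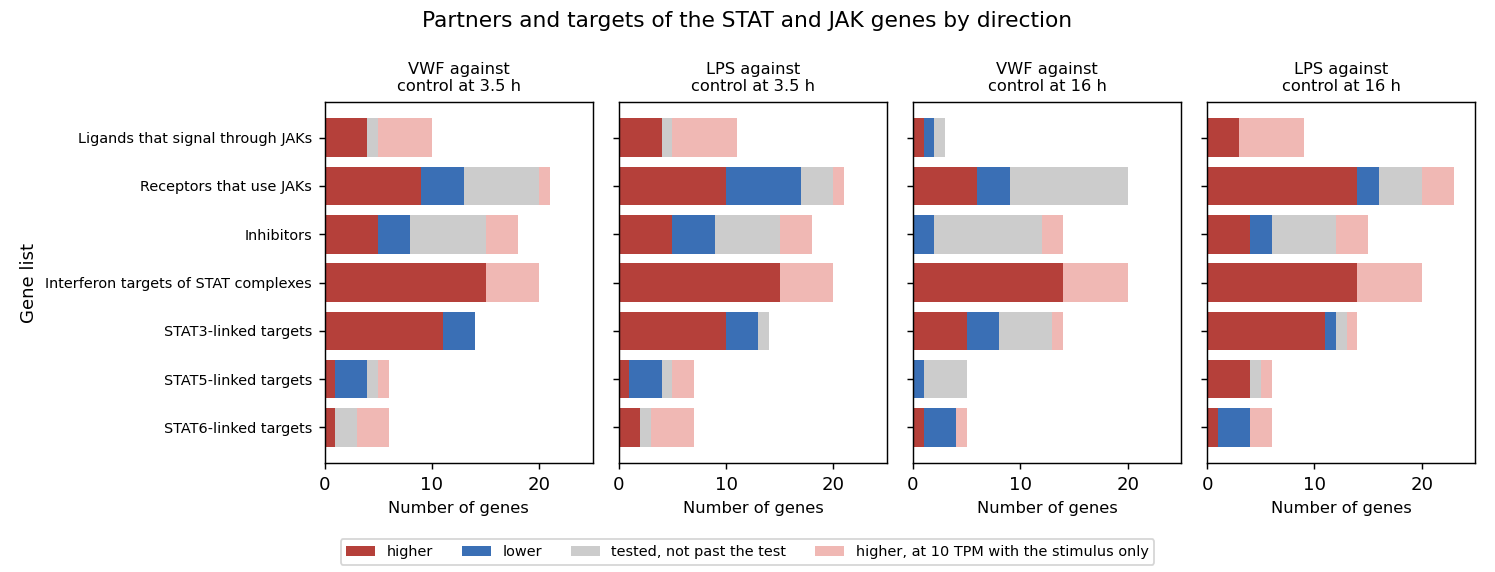
Number of tested genes (horizontal axes) in 7 lists of partners and targets, for VWF and LPS against control at 3.5 h and 16 h: among genes at 10 TPM in a control culture those higher (red), lower (blue) or not past the test (grey), and, in pink, genes that reached 10 TPM with the stimulus only, all of them higher. All interferon targets were higher in each of the 4 comparisons, 15 of 20 at 3.5 h and 14 of 20 at 16 h being at 10 TPM in control.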

How the data were processed

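Per the labels and the methods, paired reads of mouse macrophage RNA were aligned and quantified with STAR against GRCm38 (mm10), and the authors deposited raw counts per gene, with no normalization. The strand setting and annotation release were not given in the sources used. All 28 cultures were used. From the counts, levels were computed as RPKM or CPM after TMM scaling, with GENCODE M21 exon lengths. For every comparison, edgeR 4.0.16 (quasi-likelihood test, R 4.3.3) was run on the groups concerned, over genes reaching 10 TPM in at least 1 of its cultures, with Benjamini-Hochberg adjustment over all genes tested and a threshold of 0.05. A log2 change of 1 was counted beside it, and intervals are 95%. DESeq2 1.42.0, other scalings and filters, a joint fit, a replicate block and leaving out each culture were the alternatives. The fits were tested on simulated data. Members and lists were chosen with earlier results of these data known. Partner genes were named by the 2 largest changes each way per list or as direct partners of the members, and likeness used log2 CPM with a prior count of 2; 1 gene in that search is not reported here. Titles number the replicates, and nothing says that a number marks a shared mouse or day. Deviations of same-numbered cultures correlated above 0.1 in every pair for VWF against LPS at 16 h only (0.16 to 0.78 over 4 pairs). The replicate block is therefore given beside the result there. This choice came from these same data, so the calls that the block adds are not separate support. No cultures of a group were duplicates (chi-square per degree of freedom at least 17.1).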

Additional observations from a re-analysis of the deposited data

Results flagged for a closer look

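Single cultures stood far from the rest of their group in 6 cases, among 54 sets of a gene in a group, of which chance marks about 1 in 20. Control 16 h replicate 5 was apart in 3 of them, with Stat3 at 13.4 RPKM against 7.23 to 7.91 in the other cultures, Stat6 at 18.5 against 31.9 to 35.5 and Tyk2 at 1.92 against 5.91 to 7.47. The others were Stat4 at 0.394 RPKM in VWF 3.5 h replicate 2 (others 0.233 to 0.275), Jak1 at 41.8 in VWF 3.5 h replicate 5 (others 29.8 to 31.8) and Tyk2 at 7.81 in Control 3.5 h replicate 4 (others 5.39 to 6).

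Effects differed between 3.5 h and 16 h by a test of the difference itself in 14 cases. The VWF effect was lower at 16 h for Stat2 (log2 -1.26, adjusted p = 0.0189), Stat3 (-0.92, 0.00123), Stat5a (-2.69, 3.79e-09) and Jak2 (-2.49, 1.12e-06). The LPS effect was lower at 16 h for Stat5a (-3.73, adjusted p = 2.11e-08) and higher for Jak3 (0.51, 0.017) and Tyk2 (1.27, 0.0324). The difference of VWF from LPS moved down for Stat2 (-1.98, adjusted p = 0.000216), Stat3 (-1.34, 1.04e-07), Stat6 (-0.77, 0.00931), Jak2 (-2.03, 7.51e-06), Jak3 (-0.86, 0.000784) and Tyk2 (-2.08, 0.000268), and up for Stat5a (1.03, 0.0018).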

How the results depend on the processing

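Of 1501 values under all alternatives, 1391 kept their direction and their side of the threshold. Of these 1501, 947 came from fits with a culture left out, which share most of their data, and 890 of the 947 were kept. Library size scaling kept only 55 of 77, with 12 changing sign and 9 keeping their sign but losing their call. The count of members past the test was 4 for VWF and 4 for LPS against control and 1 for VWF against LPS at 3.5 h once a change over 2-fold was also required, and 1 for control at 16 h against 3.5 h. For VWF against control at 16 h it was 2 with DESeq2, 3 with edgeR's expression filter, 2 with no filter and 2 with all groups in one fit, in place of 1. With library sizes it was 1 for control at 16 h against 3.5 h and 1 for the change of the LPS effect, and without both Control 16 h replicate 5 and LPS 16 h replicate 4, an alternative chosen after seeing the data, it was 6 for the latter. Leaving out each culture gave counts of 7 to 7, 6 to 8 and 3 to 5 for the comparisons at 3.5 h, 1 to 4, 5 to 6 and 5 to 7 at 16 h, 2 to 4 for control over time, and 4 to 6, 2 to 4 and 7 to 8 for the changes with time. For VWF against LPS at 16 h the replicate block called 7 members in place of 5, Jak1 and Stat6 joining. That comparison was picked for the block from these same data, and no label gives a shared mouse or day. The block gave 1 for control over time in place of 2. It turned Stat6 with LPS at 16 h to -0.03 and, for control over time, Stat3 to -0.05 and Tyk2 to -0.09. Library size scaling turned the sign of Jak1 (-0.11) and Tyk2 (-0.17) with LPS and of Jak2 (0.01) and Jak3 (0.07) in VWF against LPS at 3.5 h, of Jak1 (-0.03) and Tyk2 (-0.01) with VWF, Stat6 (-0.44) and Jak1 (-0.09) with LPS and Stat6 (0.17) and Jak1 (0.06) in VWF against LPS at 16 h, of Stat3 over control time (-0.07) and of Stat6 in the change of the VWF effect (0.01); Jak1 with LPS at 3.5 h alone had passed before. It also moved the share of all calls that were higher from 51.2% to 28.2%, 48.4% to 18.7% and 52.3% to 81.4% for the 3 comparisons at 3.5 h, 47.1% to 37.1%, 50.9% to 22.1% and 48.8% to 75.3% at 16 h, and, for the changes with time, 48.9% to 60.6% (VWF) and 44.5% to 58.6% (VWF against LPS). With edgeR's filter Stat3 and Tyk2 over control time were both -0.04, and with no filter -0.06 and -0.03. With a culture left out, values near 0 changed sign: Stat6 with VWF at 3.5 h (-0.18 to 0.03), Jak1 (-0.08 to 0.12) and Tyk2 (-0.14 to 0.21) with VWF at 16 h, Stat6 with LPS at 16 h (0.00 to 0.28), Stat3 (-0.22 to 0.09) and Tyk2 (-0.08 to 0.24) over control time, and Jak1 in the change of the LPS effect (-0.07 to 0.19). By TPM in place of RPKM, 6 of 9 members had the same highest group. Of the 27 genes most like a member, 10 were the same by Spearman correlation. The cause of these shifts was not tested. At these depths Stat4 had few counts, and Stat5a at 16 h lay under the filter.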

Other observations

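Markers of other cell types stayed low beside the macrophage list, whose summed level was 5340 to 27300 CPM over the groups. B cell markers (4 genes) summed to at most 13 CPM, and neutrophil and granulocyte precursor markers (6) to at most 32.7 CPM. Endothelial markers (3) summed to 1.66 to 12.5 CPM outside LPS cultures at 16 h and to 52.2 to 78.4 there. Most of the latter was Kdr (mean 54.8 CPM, beside 10.9 for Pecam1 and 1.24 for Cdh5). All 3 means were above those in control at 16 h, which were 0.975 for Kdr, 1.04 for Pecam1 and 0.103 for Cdh5. Dendritic cell markers (5) summed to 14.1 to 30.8 CPM with VWF or LPS at 3.5 h and with LPS at 16 h, and to at most 2.92 CPM in the other groups. That rise was carried mostly by Xcr1, at means of 13.4 CPM with VWF and 23.1 with LPS at 3.5 h and 0.485 in control. Zbtb46 had means of 3.06 CPM with VWF and 1.7 with LPS at 3.5 h, beside 0.961 in control. Clec9a had a mean of 1.11 CPM with LPS at 16 h, beside 0.0537 in control at that time. Flt3 and Siglech stayed under 0.5 CPM in every culture. Fibroblast and stroma markers (4) ran from 6.1 to 202 CPM, a spread found within groups and led by Col1a1, whose values in control cultures at 3.5 h alone ran from 18.6 to 126 CPM. Control 16 h cultures held the lowest value of both the macrophage and the stromal list.

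The highest mean level of 4 members was in LPS cultures at 16 h (Stat2, Stat3, Jak3 and Tyk2), while Stat5a and Jak2 had theirs in LPS cultures at 3.5 h and Jak1 and Stat6 in VWF cultures at 3.5 h. For Stat3 and Stat5a the range of the group ranked first was clear of the next group. For every other member, Stat4 among them, it overlapped the next. How often it is clear over all genes was not computed. On the TPM scale Jak2 was highest in VWF cultures and Stat6 in control cultures, both at 3.5 h.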
